A study of Drosophila melanogaster with 40 samples.

Results

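Wild-type Drosophila melanogaster that could not climb 4, 6 or 8 h after a heat shock were compared with flies of the same age and hour that could. The comparison used 12 of the 40 libraries of the series, which form 6 pairs of a non-climber and a climber library. Of these pairs, 3 came from young and 3 from old flies, at 4, 6 and 8 h in each age. They were set by their labels: wild-type genotype, heat-shocked, and collected 4 h or later. This choice was made with earlier results of these data known. All 12 libraries came from whole flies, whose RNA was read from the 3' end of messenger RNA. Climbers and non-climbers are flies sorted after the heat shock by negative geotaxis, the habit of flies to climb when tapped down. The other libraries of the series are wild-type flies at 0, 1 and 2 h, flies whose insulin-producing brain cells had been ablated, and controls without heat shock at 4 h, of which the young and the old wild-type control are used here as reference levels. The young control is in batch 2 and the old one in batch 3, so levels of the young 4 h and old 8 h pairs are set against a control of another batch. The labels gave neither the age in days, the sex nor the heat regime.

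A heat shock makes fly cells transcribe chaperone genes through the heat shock factor and shuts down much other transcription until the proteins are refolded. In the fly, digestion rests on large families of serine proteases, the trypsins and the Jonah proteases, which the midgut secretes. Egg production depends on yolk proteins and on vitelline membrane and chorion proteins, which follicle cells deposit around each egg in a fixed order. The insulin receptor and the translation inhibitor Thor are known targets of the factor FOXO, which is active when insulin signalling is low.

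Each combination of age, hour and behaviour had 1 library, so no condition was replicated. Nothing in the labels said how many flies or cultures stood behind a library. The p-values therefore measure the non-climber minus climber difference against its scatter over pairs. Totals ran from 14197820 to 23058713 counts per library, and 9878 genes had enough counts to be tested. Every pair lay within 1 of 4 labelled batches: the young 4 h pair in batch 1, the young 6 h and 8 h pairs in batch 2, the old 4 h and 6 h pairs in batch 3, and the old 8 h pair in batch 4. No batch held pairs of both ages, so wherever the ages are compared, age and batch cannot be told apart. Eye, yolk protein and gut markers and the muscle markers Mhc and Act88F were present in all 12 libraries, as a whole-fly sample should hold. Levels are given in CPM (counts scaled to a common library size, as edgeR's cpm gives them) after TMM scaling, and a difference is the log2 value of a non-climber library minus that of its climber library.

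One library stood apart. The summed level of 26 male accessory gland and testis genes was 229 CPM in the young 6 h non-climbers and 0.62 to 2.83 CPM in the other 11 libraries. It was 1.12 CPM in the young and 1.01 CPM in the old control. The sperm gene Mst87F stood at 9.92 CPM in that library and at no more than 0.516 CPM in the other 11. The part of this material in the results was not tested, so calls and the medians of the main lists are also given without the young 6 h pair. The young 8 h pair differed most widely, with 215 of 7132 genes of at least 3 log2 CPM lower by more than 1 log2 unit, against 20 to 72 genes in the other pairs.

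Whether non-climbers differed from climbers as a group was tested first over all 6 pairs. Of the 9878 genes, 2 passed, both lower in non-climbers, which is 0.0202% of the genes tested (edgeR quasi-likelihood, Benjamini-Hochberg, threshold 0.05). No gene was higher past the threshold. An unadjusted p under 0.05 was reached by 548 genes (5.55%), 248 of them higher (2.51%) and 300 lower (3.04%). The sign was the same in all 6 pairs in 369 genes (3.74%), of which 194 were higher (1.96%) and 175 lower (1.77%). Without the young 6 h pair 7 genes passed, without the young 4 h pair 10, without the young 8 h pair 6 and without the old 8 h pair 1, while DESeq2 called 60 over the 6 pairs.

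Mur11Da, named as a mucin-related gene, had the smallest p. Mucins are heavily glycosylated proteins that coat epithelia. The gene (FlyBase FBgn0052644, protein-coding, X:12967888-12970056 on the plus strand of dm6) stood at 22.5, 17.4 and 16 CPM in young climbers at 4, 6 and 8 h and at 5.64, 8.58 and 7.75 CPM in young non-climbers. In old flies the values were 14.2, 5.68 and 9.01 CPM in climbers and 4.3, 1.73 and 2.31 CPM in non-climbers. Each non-climber library lay below its own climber library, although the ranges of the 2 behaviours overlapped between ages. The controls were at 12.8 CPM in young and 5.71 CPM in old flies, so old climbers at 4 h and 8 h and all 3 young climber libraries were above the control of their age. The fitted log2 difference was -1.56 ± 0.18 (SE, 6 pairs), with an adjusted p of 0.00121 in edgeR quasi-likelihood. It passed without any 1 of the 6 pairs, with adjusted p-values from 0.000911 to 0.0115.

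CG43134 (FBgn0262608, protein-coding, X:4247313-4247785, plus strand), a gene without an assigned role here, was the other gene that fell. It stood at 785, 922 and 846 CPM in young climbers and at 584, 730 and 561 CPM in young non-climbers. In old flies climbers had 798, 649 and 635 CPM and non-climbers 516, 552 and 519 CPM. Every non-climber library was lower than its partner, and the controls were at 1106 CPM in young and 724 CPM in old flies. The log2 difference was small, -0.42 ± 0.06, and its adjusted p was 0.0308 (edgeR quasi-likelihood). The call was lost without the old 4 h pair (adjusted p 0.102) or without the old 8 h pair (adjusted p 0.0834). In a fit that added the 12 libraries of 0, 1 and 2 h, neither gene passed and no gene did (606 with an unadjusted p under 0.05), with an adjusted p of 0.73 for Mur11Da and 0.253 for CG43134.

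**Figure D1:**
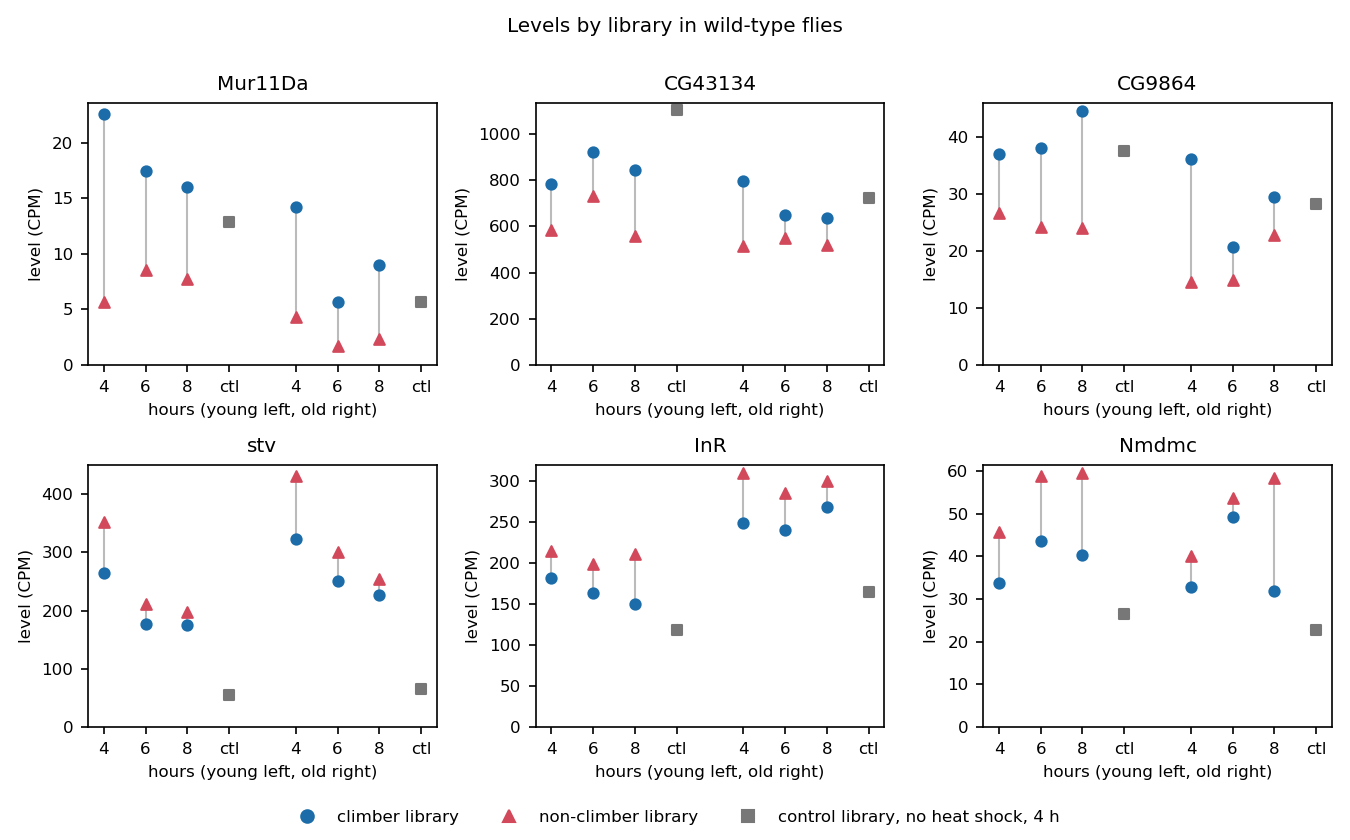
Level in CPM (linear axis from 0) of 6 genes in each young and old wild-type library at 4, 6 and 8 h; circles are climbers, triangles non-climbers, grey lines join a pair and squares are controls without heat shock. Mur11Da, CG43134 and CG9864 were lower and stv, InR and Nmdmc higher in the non-climber of all 6 pairs, but Mur11Da and CG43134 alone among them passed the test.

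The other genes that were lower in all 6 pairs, ranked by p, did not pass. CG9864 came closest, at 37.1, 38 and 44.5 CPM in young climbers against 26.7, 24.2 and 24 CPM in young non-climbers. In old flies it stood at 36.1, 20.7 and 29.5 CPM in climbers and at 14.5, 14.9 and 22.8 CPM in non-climbers. Its log2 difference was -0.69 ± 0.12 with an adjusted p of 0.0587 (edgeR quasi-likelihood). The remaining 7 of this kind ranged from CG14949 and CG12398 (both -0.75) to Picot (-0.42). They included Acer, a relative of the angiotensin-converting enzyme (-0.49 ± 0.10), Odc1, the ornithine decarboxylase that starts polyamine synthesis (-0.65 ± 0.14), the transporter genes Picot and MFS14 (-0.49 ± 0.10) and CG31778 (-0.48 ± 0.09). Acer stood at 43.1 to 59.1 CPM in the 6 climber libraries and at 28.7 to 39 CPM in the 6 non-climber libraries, and these ranges did not overlap. Groups without overlap were found in 11 genes lower in non-climbers (0.111% of the genes tested), Acer and Picot among them, and in 4 higher (0.0405%).

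Of the genes that were higher in all 6 pairs, the 10 with the smallest p had differences between 0.26 and 0.72 and none passed. Nmdmc, a mitochondrial folate enzyme, led them with 33.7, 43.6 and 40.4 CPM in young climbers and 45.8, 58.9 and 59.6 CPM in young non-climbers. The old climbers had 32.7, 49.2 and 31.9 CPM and the old non-climbers 40.1, 53.6 and 58.3 CPM. Both groups lay above the controls, which had 26.5 and 22.8 CPM, and the log2 difference was 0.46 ± 0.09 (adjusted p 0.14, edgeR quasi-likelihood). aay, the phosphoserine phosphatase that completes serine synthesis, had a difference of 0.34 ± 0.08, and its levels of 490 to 689 CPM in climbers and 583 to 1145 CPM in non-climbers exceeded the control levels of 292 and 383 CPM. Xrp1, a stress-responsive bZIP transcription factor, had 0.26 ± 0.06. The kinase gene FER had 0.49 ± 0.10, but it lies opposite Srr on the other strand, and the strand setting of the counting is not given in the sources used here. Nmdmc, aay, CG13482 and Swim also overlap other annotated genes, so their counts may be mixed too. The same holds for Acer, CG31778, CG12398 and Ilp8 among genes lower in all 6 pairs. CG5953 (0.40 ± 0.08), CG12826 (0.72 ± 0.16), CG13482 (0.37 ± 0.08) and Swim (0.36 ± 0.09) completed the group. CG12826 stood at 3.63 to 11.8 CPM in climbers and 9.07 to 16.1 CPM in non-climbers against 0.37 and 0.71 CPM in the controls.

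**Figure D2:**
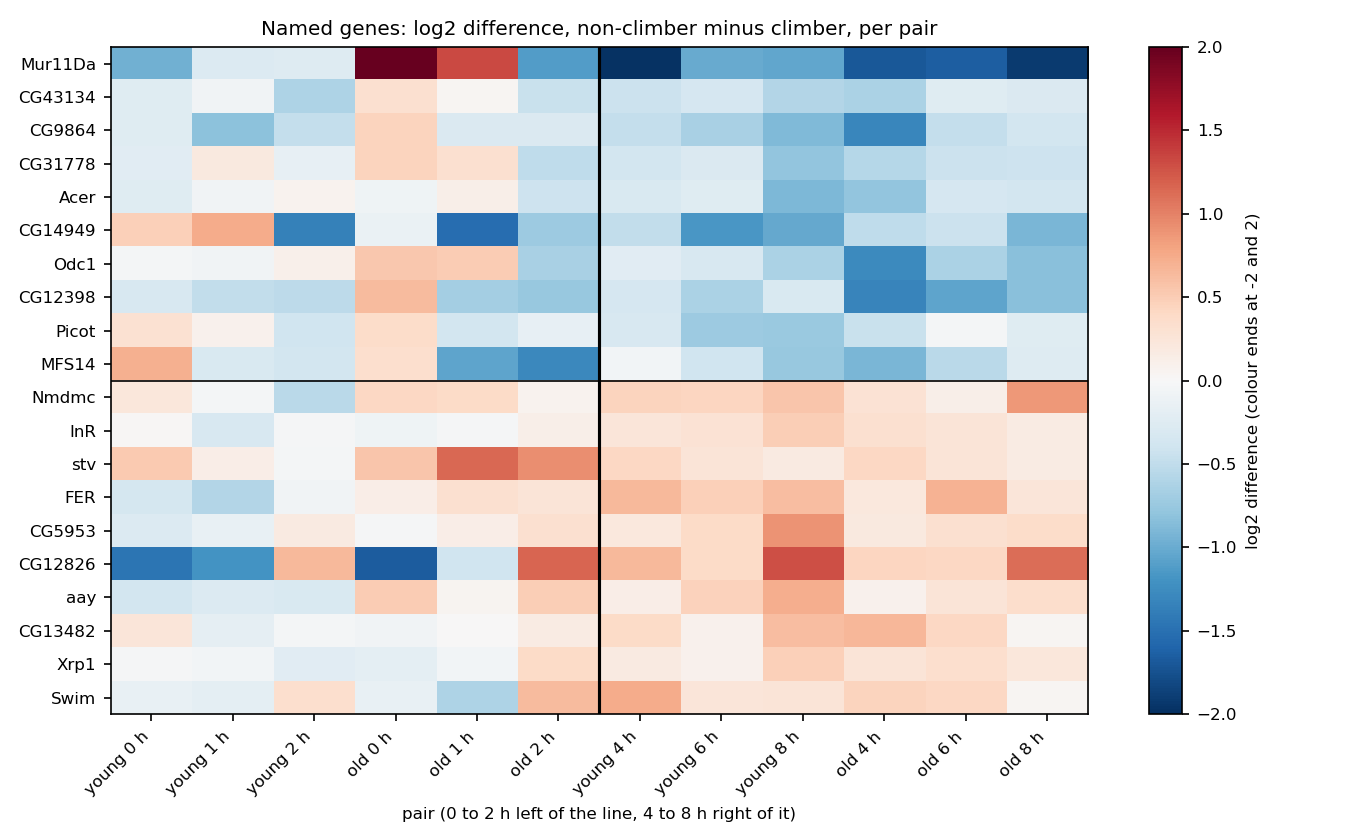
Log2 difference, non-climber minus climber, for the 10 genes lower (above the horizontal line) and the 10 genes higher (below it) in all 6 pairs of 4 to 8 h, which are right of the vertical line; left of it are the 6 pairs of 0 to 2 h, which had no part in the choice. The right side has 1 sign per row by choice, whereas the left side shows mixed signs: Mur11Da was 2.93 log2 units higher in old non-climbers at 0 h.

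Insulin and fasting genes were examined through a list of 18 tested FOXO targets and fasting genes. None passed, and 9 were above 0, where 50.5% of all genes were, and 9 below, with a median of 0.003 against 0.001 for all genes. InR, the insulin receptor, was higher in all 6 non-climber libraries. It stood at 182, 164 and 151 CPM in young climbers and 215, 200 and 211 CPM in young non-climbers, and at 249, 240 and 269 CPM in old climbers and 310, 286 and 301 CPM in old non-climbers. The young control had 119 CPM and the old control 165 CPM. All 12 libraries were above the control of their age, and within each pair the non-climbers were the farther from it. The fitted difference was 0.29 ± 0.06 with an adjusted p of 0.14 (edgeR quasi-likelihood). Thor, which encodes the translation inhibitor 4E-BP, was higher in all 6 pairs too, with 261 to 407 CPM in climbers, 322 to 538 CPM in non-climbers and 0.30 ± 0.08 for the difference. Pepck2, an enzyme of glucose synthesis, had 0.61 ± 0.20, and the lipase gene bmm 0.15. These 4 were the members with an unadjusted p under 0.05, against 2.51% of all genes higher at that p. Lip4 and sug, also on the list, were higher in 1 of 6 pairs each.

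Chaperone transcripts remaining at 4 to 8 h were compared next. Of 15 tested inducible heat shock genes none passed, 12 were above 0, where 50.5% of all genes were, and the median was 0.09. Without the young 6 h pair the median was 0.10, and it was 0.07 without the old 4 h pair and 0.16 without the old 8 h pair. stv (starvin), a BAG-domain co-chaperone of Hsp70, was higher in all 6 non-climber libraries. It stood at 264, 177 and 175 CPM in young climbers and 352, 211 and 197 CPM in young non-climbers. The old values were 322, 250 and 227 CPM in climbers and 431, 301 and 254 CPM in non-climbers, against 55.5 and 65.4 CPM in the controls. Its difference was 0.28 ± 0.06 (adjusted p 0.16, edgeR quasi-likelihood). The difference was 0.41 and 0.42 at 4 h in young and old flies, 0.26 and 0.26 at 6 h, and 0.17 and 0.17 at 8 h, although the slope over hours did not pass (adjusted p 0.993).

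Abundant chaperone genes had small differences between behaviours. Hsp68 was at 598 to 1931 CPM in climbers and 509 to 1831 CPM in non-climbers, with controls at 49.2 and 21.8 CPM, and its difference was 0.19 ± 0.13. Hsp23 had a difference of 0.01 ± 0.07, Hsp26 0.08 ± 0.07 and Hsp83, the fly Hsp90, 0.06 ± 0.06. The small heat shock gene Hsp67Bc had 0.42 ± 0.12 and Hsp70Ab 0.32 ± 0.10. Together with stv these were the 3 members with an unadjusted p under 0.05, against 2.51% of all genes higher at that p. The Hsp70 genes are near-identical copies, so reads may be split among them, and their single values are uncertain. The sum of the 17 matched heat shock genes was higher in the non-climbers of 3 of 6 pairs. In the old pairs of 0, 1 and 2 h the median member was higher by 0.56, 1.09 and 0.90 log2 units, against 0.30, 0.02 and -0.15 in the old pairs of 4, 6 and 8 h. In young flies the early medians were 0.36, 0.16 and -0.02 and the late ones 0.07, 0.22 and 0.17, which shows no such order. The libraries of the old 1 h pair are in different labelled batches, so behaviour and batch cannot be told apart in its value. The late minus early difference of stv was -0.26 ± 0.18 and that of DnaJ-1 -0.40 ± 0.14, neither past the threshold (adjusted p 0.998 for each, edgeR quasi-likelihood).

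Genes of the digestive proteases stood lower in non-climbers. Of 27 tested trypsin and Jonah genes 26 were below 0 over the 6 pairs, where 49.5% of all genes were, and the median was -0.33. None passed over 6 pairs, and 10 had an unadjusted p under 0.05, all lower, against 3.04% of all genes lower at that p. The median was -0.28 in young and -0.36 in old flies, -0.41 without the young 6 h pair and -0.28 without the young 8 h pair. By pair, the young medians were -0.03 at 4 h, with 11 of 27 genes higher in non-climbers, -0.05 at 6 h and -0.60 at 8 h. The old ones were -0.51, -0.33 and -0.29. The young value thus rests largely on the 8 h pair. The summed level of the 29 matched genes was 3561, 2598 and 3208 CPM in young climbers at 4, 6 and 8 h and 3004, 2441 and 1695 CPM in young non-climbers. In old flies it was 2058, 1297 and 1354 CPM in climbers and 1347, 1002 and 1085 CPM in non-climbers. The non-climber library was lower in all 6 pairs, and all 12 libraries were below the control of their age, which had 6033 CPM in young and 2360 CPM in old flies. These genes share a tissue, and in whole flies fewer gut cells and less RNA per gut cell cannot be told apart.

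Among the trypsins, alphaTry was lower in all 6 pairs, with 294 to 513 CPM in climbers and 209 to 424 CPM in non-climbers and a difference of -0.32 ± 0.07 (adjusted p 0.201, edgeR quasi-likelihood). betaTry, its neighbour and close relative on chromosome 2R, was lower in all 6 pairs as well, with -0.35 ± 0.08. epsilonTry had -0.40 ± 0.12 and thetaTry -0.52 ± 0.19. The Jonah genes Jon25Biii (-0.80 ± 0.29), Jon25Bii (-0.83 ± 0.36) and Jon65Aiv (-0.63 ± 0.28) had larger values with larger errors and, with thetaTry, were chosen after their values were seen. Jon44E was the 1 gene of the 27 above 0, at 0.10. The digestive lysozymes, which break bacterial walls in the gut, had 7 of 7 tested genes below 0, where 49.5% of all genes were. Their median was -0.40, and -0.26 without the young 8 h pair. Their summed level was lower in the non-climbers of 4 pairs and higher at 4 h in both ages, at 120 CPM against 105 CPM in young and 167 CPM against 163 CPM in old flies. None of them passed, and LysD (-0.77 ± 0.22), LysP (-0.40 ± 0.15), LysB (-0.48) and LysC had an unadjusted p under 0.05. Of all genes 3.04% were lower at that p. LysC had no count in the 3 old non-climber libraries, and its fitted value is no bound. Of 13 tested maltase and amylase genes, which digest starch and sugars, 9 were below 0 with a median of -0.03, or 0.11 in young and -0.15 in old flies, and none passed.

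**Figure D3:**
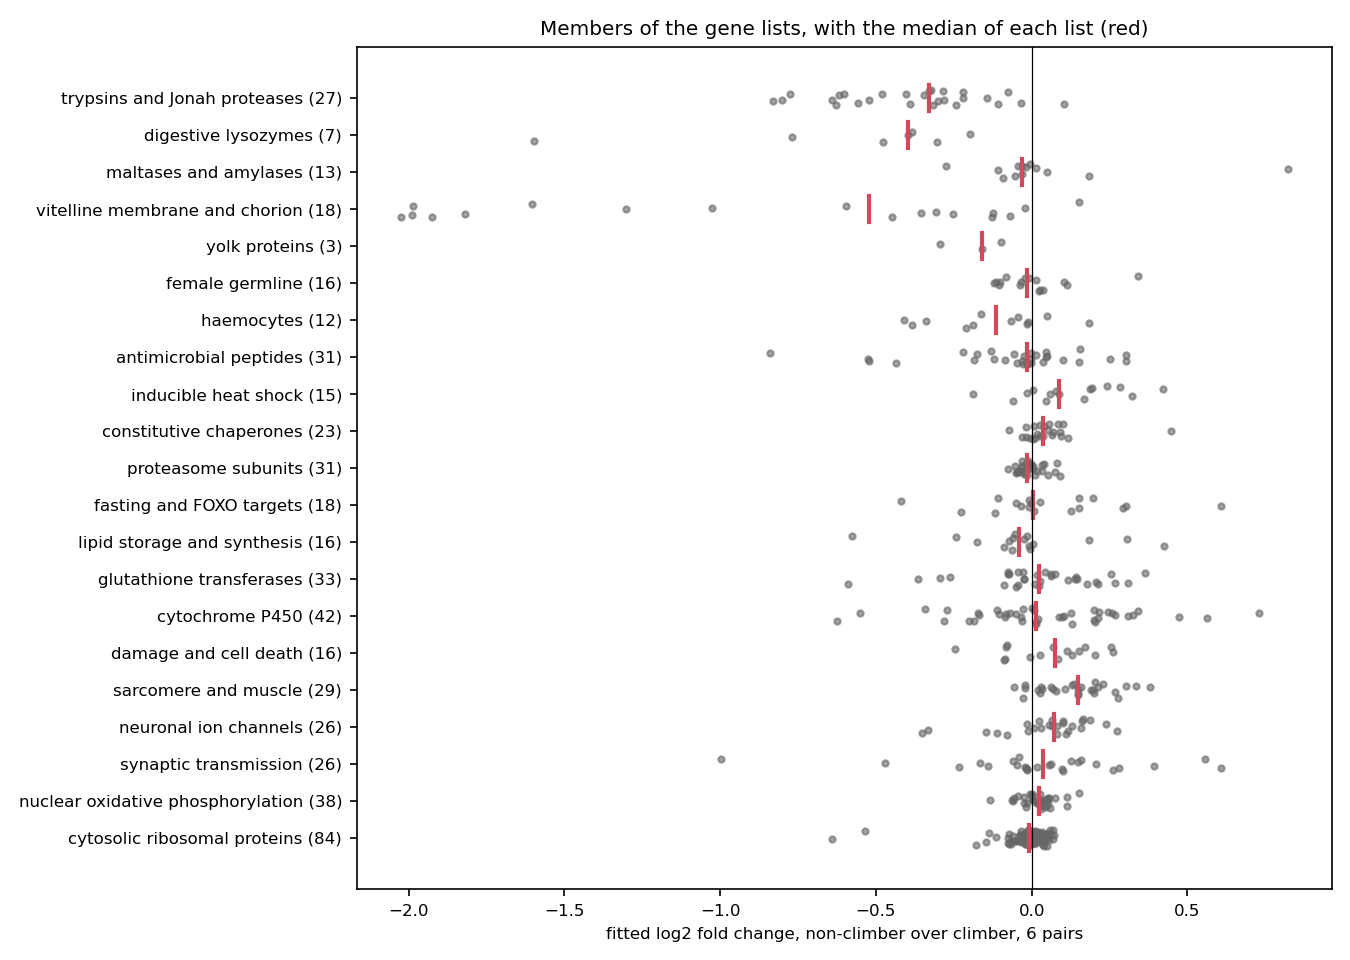
Fitted log2 fold change of non-climbers over climbers across 6 pairs for each tested member of 21 gene lists (grey points, number of genes in brackets), with the median of each list as a red bar. The vitelline membrane and chorion list reaches down to -2.02 with a median of -0.52, the trypsin and Jonah list lies almost wholly below 0, and the medians of the ribosomal protein and proteasome lists are both -0.01.

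Eggshell genes formed the list with the lowest median. The list of 18 vitelline membrane and chorion genes had 17 below 0, where 49.5% of all genes were, and a median of -0.52. None passed, and 3 were lower with an unadjusted p under 0.05, against 3.04% of all genes. Its summed level was lower in the non-climbers of all 6 pairs: in young flies it was 14274, 6590 and 4267 CPM in climbers and 4293, 6109 and 3265 CPM in non-climbers at 4, 6 and 8 h. In old flies it was 9081, 4165 and 4098 CPM in climbers and 2255, 1499 and 1051 CPM in non-climbers. The controls were at 13400 and 7381 CPM. The single genes did not all follow the sum in young flies. At 6 h 10 of 18 genes were higher in young non-climbers (median 0.34) and at 8 h 12 of 18 (median 1.32), against 0 of 18 at 4 h (median -1.67). Old non-climbers were lower in 17, 16 and 18 of the 18 genes at 4, 6 and 8 h. The medians by age differed, 0.09 in young and -1.40 in old flies, but no member passed the test of the difference between ages. Without the young 6 h pair the median was -0.75. It was -0.30 without the old 8 h pair and -1.0 without the young 8 h pair, so single pairs moved its size by more than 1.5 times without turning its sign.

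The chorion genes lie in a pair of clusters, which follicle cells amplify to make enough shell protein, and the clusters are used in order as the egg matures. The split by cluster was made after the values were seen. Cp18, Cp15, Cp19 and Cp16 lie together on chromosome 3L (from 8726791 to 8732599 in dm6) and belong to the last steps of shell formation. These were the 4 of the 9 chorion genes that were lower in all 6 pairs, as 1.77% of all genes were. Cp19 stood at 879, 634 and 438 CPM in young climbers and 109, 488 and 137 CPM in young non-climbers. In old flies it stood at 918, 323 and 300 CPM in climbers and 133, 169 and 45.2 CPM in non-climbers, a difference of -1.92 ± 0.47 with an adjusted p of 0.723 (edgeR quasi-likelihood). Cp16 had -1.82 ± 0.46, Cp18 -1.60 ± 0.52 and Cp15 -1.30 ± 0.56.

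The X-linked chorion genes Cp36 and Cp38, which are transcribed before the 3L cluster and were chosen here after their values were seen, were split by age and pair. Cp36 (X:8479319-8480523) stood at 2650, 528 and 323 CPM in young climbers and 397, 842 and 343 CPM in young non-climbers. In old climbers it stood at 1034, 901 and 535 CPM and in old non-climbers at 262, 76.5 and 31.6 CPM. Non-climbers were thus lower at all 3 hours in old flies but at 4 h alone in young flies. The old difference was -3.21 ± 0.93 and the young one -0.58 ± 0.92, and the difference between ages did not pass (adjusted p 0.999, edgeR quasi-likelihood). Cp38 had -3.22 ± 0.81 in old and -0.71 ± 0.78 in young flies. The 6 vitelline membrane genes, whose products form the inner layer laid down before the chorion, had pair medians of -1.01, 0.04 and 1.87 in young and -0.29, -0.52 and -0.90 in old flies.

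Other genes of late follicle cells and yolk were also compared, and none passed. Femcoat, which encodes an eggshell protein, was lower in all 6 pairs, with 84.1 to 147 CPM in climbers and 14.4 to 86.2 CPM in non-climbers and a difference of -1.98 ± 0.46. It was named after its values were seen. Ilp8, a relaxin-like peptide that mature follicles express in adult females, was also lower in all 6 pairs, at 71.8 to 192 CPM in climbers and 41.6 to 166 CPM in non-climbers (-0.42 ± 0.09, adjusted p 0.208, edgeR quasi-likelihood). The yolk protein gene Yp2 was lower in all 6 pairs with a difference of -0.29 ± 0.08, whereas Yp1 was lower in 4 and higher in 2 and had -0.10 ± 0.11. Genes of the female germline, which nurse cells load into eggs, were near 0, with a median of -0.01 in 16 tested genes. Of these 9 were below 0, where 49.5% of all genes were. The part of ovary content in the eggshell values was not tested.

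**Figure D4:**
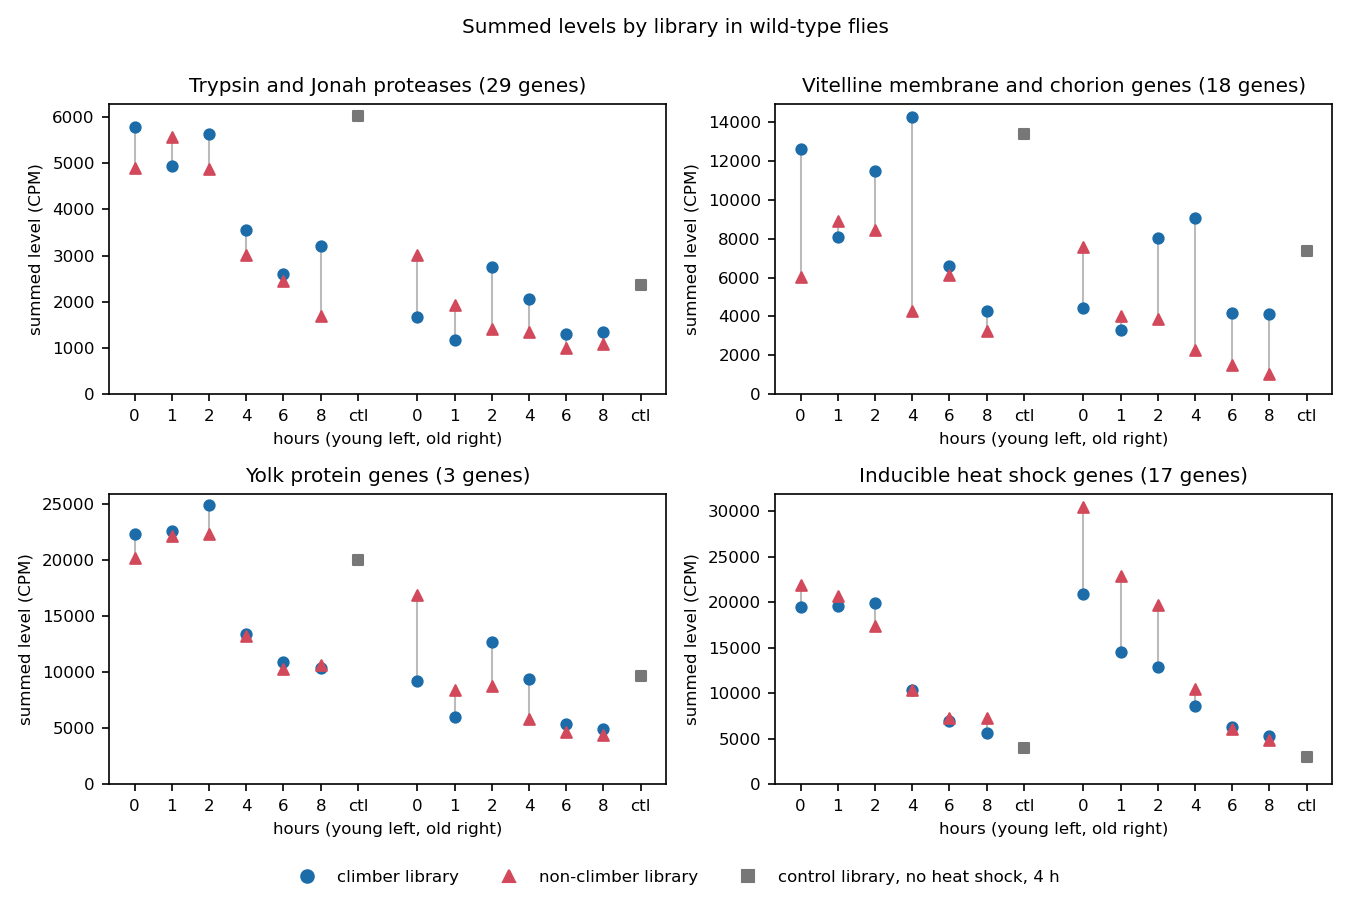
Summed level in CPM (linear axis from 0) of 4 gene lists in every wild-type library, by hour after heat shock; circles are climbers, triangles non-climbers, lines join a pair and squares are controls. The protease and eggshell sums were lower in the non-climbers of all 6 pairs from 4 to 8 h, while the young 1 h, old 0 h and old 1 h pairs had the opposite order in both.

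Old and young flies were then given a behaviour term each in 1 fit of the 12 libraries, so the p-values of either age also rest on the scatter of the other age's pairs. In the 3 young pairs no gene passed (450 with an unadjusted p under 0.05, 4.56%), while DESeq2 called 15 and limma-voom 1. In the 3 old pairs 9 genes passed, all lower in non-climbers (0.0911% of the genes tested), and 441 had an unadjusted p under 0.05 (4.46%). They were the 3 neighbouring protease genes Jon99Ci, Jon99Cii and Jon99Ciii, the neighbouring lysosomal alpha-mannosidase genes LManV and LManVI, Mur11Da, the odorant-binding protein gene Obp99a, and CG13607 and CG31928. They are named because they passed, after their values were seen. Without the old 8 h pair 4 genes passed, without the old 6 h pair 14 and without the old 4 h pair 9, of which 3, 8 and 7 were among these 9. The Jonah and mannosidase genes have close relatives beside them, so the split of reads within each cluster is uncertain.

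The age difference itself passed for 4 genes, all more negative in old flies (0.0405% of the genes tested), and 336 genes had an unadjusted p under 0.05 (3.4%). Young and old pairs lay in different labelled batches, so age and batch cannot be told apart in these values. Jon99Cii (FBgn0003356, 3R:29923754-29924615) stood at 147, 84.2 and 75.7 CPM in young climbers and 118, 83.8 and 72.2 CPM in young non-climbers. In old flies climbers had 77.6, 24.7 and 19.7 CPM and non-climbers 30.4, 10.8 and 9.01 CPM. The young pairs lay close together and each old non-climber was well below its partner. The difference was -0.13 ± 0.10 in young and -1.23 ± 0.11 in old flies, and old minus young was -1.11 ± 0.15 with an adjusted p of 0.0151 (edgeR quasi-likelihood).

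Jon99Ci (FBgn0003358, 3R:29925226-29926189) stood at 22.8, 20.3 and 19.3 CPM in young climbers and 28.9, 23.5 and 15.5 CPM in young non-climbers, against 17.2, 6.19 and 10.9 CPM in old climbers and 6.61, 1.19 and 2.75 CPM in old non-climbers. Its old minus young value was -1.93 ± 0.30 (adjusted p 0.0308, edgeR quasi-likelihood). LManV (FBgn0032068, 2L:8772946-8776263) encodes an enzyme that trims mannose from glycoproteins in the lysosome. It was at 9.35, 9.49 and 7.47 CPM in old climbers and 3.73, 2.92 and 1.3 CPM in old non-climbers, whereas young non-climbers were below their partner at 4 h and above it at 6 h and 8 h. Its old minus young value was -1.95 ± 0.32 (adjusted p 0.0464, edgeR quasi-likelihood).

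Obp99a (FBgn0039678, 3R:29671657-29672334) was the 1 gene of the 4 with opposite signs in every pair of each age. Young non-climbers had 152, 147 and 157 CPM against 103, 132 and 147 CPM in young climbers. Old non-climbers had 38.1, 41.4 and 48.8 CPM against 78.8, 65.6 and 75.9 CPM in old climbers. The difference was 0.27 ± 0.11 in young and -0.78 ± 0.11 in old flies, and old minus young was -1.05 ± 0.16 (adjusted p 0.0308, edgeR quasi-likelihood). All 4 calls were lost without the young 6 h pair, the pair with the male transcripts, where no gene passed and their adjusted p-values were 0.234 to 0.465. They were also lost without the old 6 h pair (adjusted p 0.078 to 0.247) or without the old 8 h pair (adjusted p 0.0503 to 0.192), and without the young 4 h pair only Jon99Cii of the 4 passed. Without the old 4 h pair Obp99a alone was lost (adjusted p 0.0726), and limma-voom lost Jon99Ci (adjusted p 0.19) and LManV (adjusted p 0.432). Without the young 8 h pair 21 genes passed, these 4 among them.

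**Figure D5:**
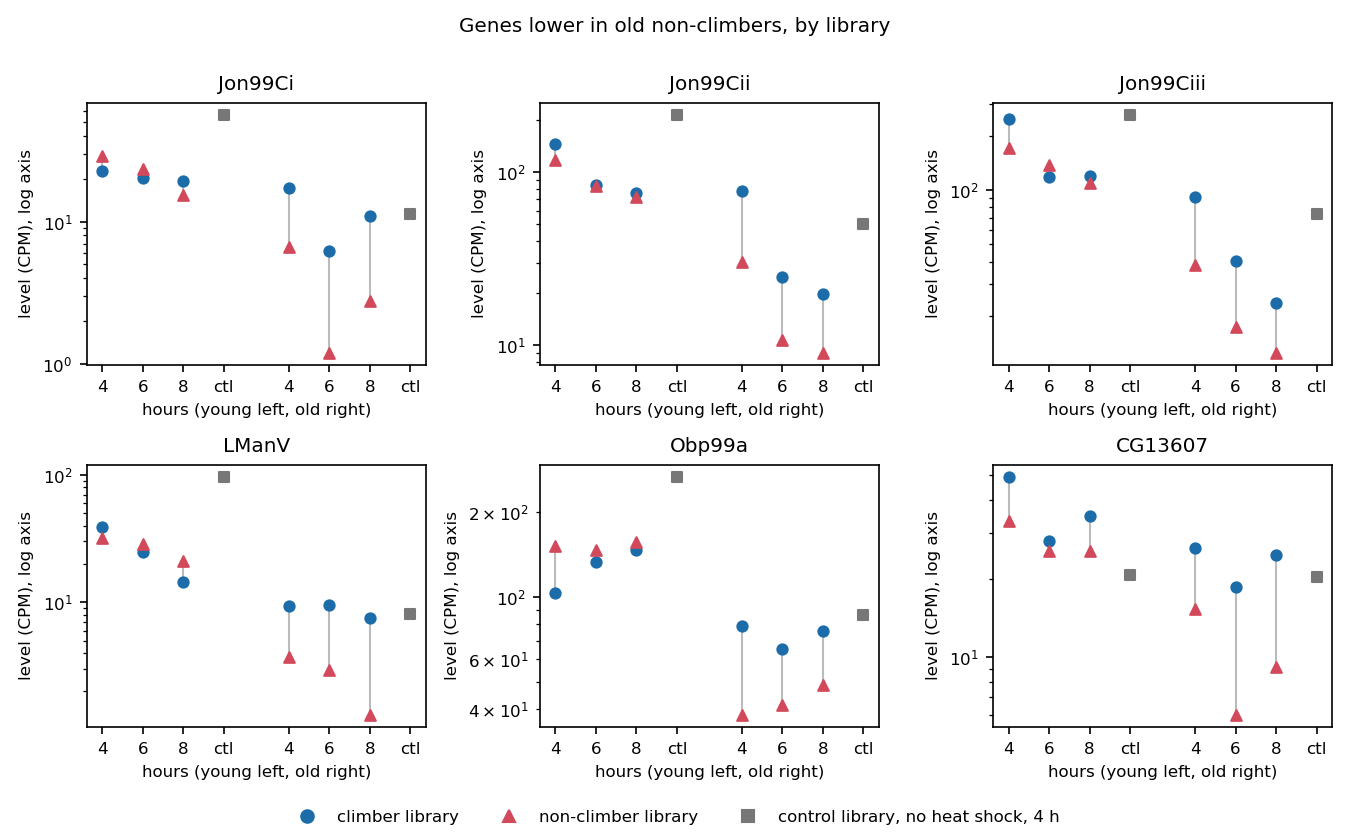
Level in CPM (log axis) of 6 of the 9 genes that passed in the 3 old pairs, in young and old wild-type libraries at 4, 6 and 8 h; circles are climbers, triangles non-climbers, lines join a pair and squares are controls. The triangle lies below the circle in every old pair, while young pairs have mixed order in Jon99Ci, Jon99Ciii and LManV and the reverse order in Obp99a.

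CG13607 and CG31928 passed in old flies and had the same sign in young flies. CG31928 stood at 27.4, 11.9 and 19.7 CPM in old climbers and 2.31, 3.91 and 4.72 CPM in old non-climbers. In young flies climbers had 25.7, 22 and 21 CPM and non-climbers 8.55, 9.56 and 10.6 CPM, so that all 6 climber libraries were above all 6 non-climber libraries. Its old difference was -2.39 ± 0.33 (adjusted p 0.0294) and its value over 6 pairs was -1.78 ± 0.33 (adjusted p 0.326, edgeR quasi-likelihood for each). CG13607 was at 26.2, 18.6 and 24.6 CPM in old climbers and 15.3, 5.99 and 9.15 CPM in old non-climbers, with -1.26 ± 0.17. The calls of CG31928 and CG13607 were lost without the old 8 h pair (adjusted p 0.208 and 0.0846).

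Immune and muscle genes differed between pairs more than between behaviours. The sum of 34 antimicrobial peptide genes was 8000 CPM in climbers and 3931 CPM in non-climbers of the young 8 h pair, and 15092 and 21935 CPM in the old 6 h pair. The median of the 31 tested genes was -0.02, 11 above and 20 below 0. Drs, which encodes the antifungal peptide drosomycin, was higher in the non-climbers of 5 of 6 pairs and had 0.30 ± 0.07 (adjusted p 0.208, edgeR quasi-likelihood). Of 29 sarcomere and muscle genes 25 were above 0, where 50.5% of all genes were, with a median of 0.15, and none passed. By age, 26 of 29 were above 0 in young flies (median 0.27) and 13 of 29 in old flies (median -0.02). The pairs differed: all 29 were higher in young non-climbers at 4 h and 7 of 29 at 8 h. Mhc, the muscle myosin heavy chain, stood at 240 and 532 CPM in young climbers and non-climbers at 4 h, at 232 and 376 CPM at 6 h and at 251 and 179 CPM at 8 h. Markers of haemocytes, the blood cells, had 10 of 12 genes below 0, where 49.5% of all genes were, with a median of -0.11. By age, 10 of 12 were below 0 in young flies (median -0.31) and 7 of 12 in old flies (median -0.12). In the old 6 h pair 8 of 12 were higher in non-climbers. The collagen gene vkg was lower in all 6 pairs (-0.41 ± 0.12).

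Without the young 6 h pair the medians were -0.05 for the antimicrobial peptides, 0.08 for muscle and -0.18 for haemocytes. The muscle median was 0.04 without the young 4 h pair, the haemocyte median -0.01 and the antimicrobial peptide median 0.15 without the young 8 h pair.

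Detoxification, housekeeping and nerve lists held no gene that passed. Cytochrome P450 genes had 24 of 42 above 0 (median 0.01), where 50.5% of all genes were. Cyp4e3 was higher in all 6 pairs (0.56 ± 0.15), as 1.96% of all genes were, and Cyp6a8 had 0.73 ± 0.22. Glutathione transferases had 19 of 33 above 0 (median 0.02), against the same 50.5% of all genes, led by GstE7 (0.27 ± 0.08) and GstE3 (0.31 ± 0.10). The 84 cytosolic ribosomal protein genes had a median of -0.01, the 31 proteasome subunits -0.01 and the 38 nuclear genes of oxidative phosphorylation 0.02. Synaptic genes had a median of 0.04 over 26 genes and ion channel genes 0.07 over 26. Without the young 6 h pair the medians were -0.03 for cytochrome P450 genes, 0.03 for glutathione transferases, 0.02 for synaptic and 0.08 for ion channel genes. In the same setting they were 0.02 for the FOXO and fasting list, -0.45 for the lysozymes, -0.05 for the maltases and amylases and -0.03 for the female germline.

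Whether the difference changed within the window was tested as a slope per hour. No gene passed (465 with an unadjusted p under 0.05, 4.71%), nor in DESeq2 or limma-voom. The 3 smallest p belonged to Nep4, a metalloendopeptidase gene (-0.45 ± 0.10 per hour), CG14567 (-0.36 ± 0.08) and CG4734 (-0.36 ± 0.08), each with an adjusted p of 0.739 (edgeR quasi-likelihood). For Nep4 the pair difference went from 0.68 at 4 h to -1.40 at 8 h in young flies and from 1.12 to -0.40 in old flies.

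The comparison with the first 2 hours asked whether any difference belonged to the later window. In 24 libraries with 12 pair terms no gene of 10400 passed for late minus early (441 with an unadjusted p under 0.05, 4.24%), while DESeq2 called 3 and limma-voom 0. Mur11Da had -1.75 ± 0.67 (adjusted p 0.998, edgeR quasi-likelihood), since its early pairs ranged from -1.12 to 2.93. The protease list had the opposite order, by its median, in 3 of the 6 early pairs, young 1 h, old 0 h and old 1 h. In young flies at 1 h the median Jonah gene was 0.29 log2 units higher in non-climbers. In old flies the median Jonah gene was 1.45 log2 units higher in non-climbers at 0 h and 1.49 higher at 1 h, while at 2 h its difference was -1.06. The trypsins followed only in part, with a median of -0.02 in young flies at 1 h. In old flies their median was 0.78 at 0 h, -0.20 at 1 h and -0.52 at 2 h. In each 1 h pair 5 of 10 trypsins were higher. The division into Jonah genes and trypsins was made after the values were seen. The old 1 h pair is split over 2 labelled batches, so there behaviour and batch cannot be told apart. That pair also had 28 of 29 muscle genes lower in non-climbers, with a median difference of -1.62. The genes with the smallest p were CG15784 (0.54 ± 0.10, adjusted p 0.162), Srr (1.36 ± 0.27, adjusted p 0.196) and CG15547 (0.83 ± 0.19, adjusted p 0.557, edgeR quasi-likelihood for each). Srr lies opposite FER, which bears on both values.

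How far the pairs resembled each other was described over 7132 genes. The Pearson correlation of the differences across genes was 0.13 to 0.39 between old pairs, -0.03 to 0.08 between young pairs and -0.07 to 0.23 between ages. By rank (Spearman) the old pairs were hardly more alike than the others. The values were -0.06 for old 4 h with 6 h, 0.02 for 6 h with 8 h and 0.17 for 4 h with 8 h. Between young pairs they were -0.07 to -0.01 and between ages -0.06 to 0.14. These correlations run across genes within the same libraries, and genes are not independent replicates. The SD of the differences over genes was 0.28 to 0.42 log2 units per pair, widest in the young 8 h pair.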

How the data were processed

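RNA of whole flies was made into 3' end libraries (Lexogen Quant 3' mRNA-Seq V2, read 1), per the labels' protocols. The submitters' processing notes name STAR 2.7.5a and the genome build dm6; how reads were counted (program, annotation, strand, molecular identifiers) is not given in the sources used here. The authors deposited raw counts per gene for all libraries, of which 17596 of 17609 genes matched a symbol, and 2531 had no count in the 12 libraries. From these counts, edgeR 4.0.16 (R 4.3.3, filterByExpr, TMM, robust quasi-likelihood, Benjamini-Hochberg, threshold 0.05) was fitted with a term for each pair and 1 for behaviour, which left 5 residual degrees of freedom. The joint fit with a behaviour term per age left 4 and the fit of 24 libraries left 10. SE is the fold change over the root of F. Pair differences used log2 CPM with a prior count of 2. A count of 3 corresponds to 0.13 to 0.211 CPM per library, covering counting error only. limma 3.58.1 (voom), DESeq2 1.42.0, other scalings and filters, and leaving out each pair were alternatives. The procedure was also run on counts simulated from its own fitted model. Such counts cannot show how well the model holds for the real scatter between pairs, so they do not bear on single calls.

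The members and the gene lists were chosen with earlier results of these data known. Named genes are those past the threshold, filled to 10 per direction by smallest p among genes of at least 3 log2 CPM with 1 sign in all 6 pairs, and the 3 members of smallest p of each list; others are said to be chosen after their values were seen, which also holds for LysB, bmm, Lip4, sug, Mhc, Cp15 and Jon44E. Promoter sequences were not used here.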

Additional observations from a re-analysis of the deposited data

Results flagged for a closer look

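The young 8 h pair of CG5953 had a difference of 0.90 log2 units, and the next highest of the 6 pairs had 0.38. The summed male accessory gland and testis genes stood at 229 CPM in the young 6 h non-climbers, and the next of the 6 non-climber libraries had 2.64 CPM. Each stood farther from its group than Dixon's critical value allows, among 20 gene groups and 34 list sums looked at, where chance alone marks about 1 group in 20. The 20 genes had been picked for 1 sign in all 6 pairs and a small p, so this rate need not hold for them. With so many groups looked at, the flag of CG5953 may be chance.

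The non-climber difference was not the same in the old and young pairs, by the test of the difference itself, for Jon99Cii (-1.11), Jon99Ci (-1.93), LManV (-1.95) and Obp99a (-1.05 log2 units, old minus young). Young and old pairs lay in different labelled batches, so age and batch cannot be told apart here. All 4 genes had adjusted p-values above the threshold without the young 6 h pair, the pair with the male transcripts. The same held without the old 6 h pair and without the old 8 h pair. Without the young 4 h pair only Jon99Cii passed.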

How the results depend on the processing

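No result changed sign among those called. Over 6 pairs 2 genes passed, 38 with no count filter, 60 with DESeq2, 1 without the robust option, 0 with 24 libraries (606 at an unadjusted p under 0.05), and 23 without the young 6 h and young 8 h pairs together, an alternative chosen after seeing the data. Leaving out 1 pair gave 1 to 10. With additive terms for age and hour in place of the pair terms (no replicate block) 3 passed, 2 of them shared. With all 40 libraries 3 passed, none shared. In young pairs 0 passed, 26 with no filter, 15 with DESeq2, 1 with limma-voom and 0 to 16 with 1 pair left out. In old pairs 9 passed, 25 with no filter, 56 with DESeq2 and 4 to 14 with 1 pair left out. For the age difference 4 passed, 8 with no filter, 8 with DESeq2, 2 with limma-voom and 0 to 21 with 1 pair left out. For the slope 0 passed, 3 with no filter and 0 to 1 with 1 pair left out. For late minus early 0 passed, 4 with no filter, 3 with DESeq2 and 0 to 1 with 1 pair left out. The cause of these moves was not tested. The heat shock median was 0.27 with 40 libraries. With fits of 2 pairs in an age, the spread rests on few libraries. No paired analysis by replicate number was possible because the labels carry no replicate numbers; the pairs are age and hour. The search for heat shock elements in promoters was not run.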
